A study of Mus musculus with 4 samples.

Results

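The Hox genes of the mouse lie in 4 clusters, and 38 of them were described here from MeDIP-seq of pancreatic islets. They are Hoxa2 to Hoxa13 on chromosome 6 (10 genes), Hoxb1 to Hoxb13 on chromosome 11 (10 genes), Hoxc4 to Hoxc13 on chromosome 15 (9 genes) and Hoxd1 to Hoxd13 on chromosome 2 (9 genes). They were chosen by name, out of 21938 protein-coding genes of the GENCODE annotation, and the rule used no measured value, though earlier results of these data were known when the group was proposed. A gene was counted as holding methylated DNA where a MeDIP peak of any library overlapped its body or the 2 kb upstream of it.

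Hox genes encode homeodomain transcription factors that set the identity of body segments, limbs and the hindbrain in the embryo. Their order along the chromosome follows the order of their expression along the body axis, with low-numbered genes anterior and high-numbered genes posterior. The clusters are dense in CpG sites and poor in repeats, and in tissues that do not use them they are commonly kept silent by Polycomb proteins and the histone mark H3K27me3. Such Polycomb-covered CpG islands are usually free of DNA methylation.

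In MeDIP-seq, an antibody to methylated cytosine pulls down fragments of genomic DNA, and their sequenced tags pile up where methylated CpG sites are dense. The study compared islets of βRapKO mice (labelled Raptor lox/lox; RipCre), in which Cre driven by the rat insulin promoter removes Raptor from beta cells, with islets of WT mice (labelled WT; Raptor lox/lox). Mice of both groups were 8 weeks old, on a C57BL/6 background by the labels, and carried the floxed Raptor allele; in the methods the Cre line was of mixed C57BL/6J:129/SvJ origin. Raptor is the defining subunit of mTORC1, a kinase complex that couples nutrients to growth, and the comparison asked whether DNA methylation in islets changed with its loss. There were 2 libraries per genotype. The sources do not say whether they came from separate animals or from pools, so p-values measure only the spread between these samples, which may be technical.

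Islets were handpicked after collagenase digestion and hold alpha, delta and other cells besides beta cells. A share of methylated cells and a degree of methylation per cell cannot be told apart in such bulk DNA. No RNA was measured in these libraries, so the cell types could be looked at only through peaks near the starts of marker genes. Of the islet endocrine markers 0 of 6 had a peak within 500 bp of the start, and the counts were 1 of 4 acinar, 1 of 2 duct, 1 of 2 leukocyte and 1 of 2 endothelial markers. Over all genes the share was 12.6%, and lists this small cannot show a difference between cell types. The acinar marker had its peak in all 4 libraries, the duct marker in 1, and the leukocyte and endothelial markers in 2 each. The loss of Raptor was not checked in these libraries. After removal of duplicates the libraries held 25585533 to 31330751 tags, and 117638 to 151093 peaks were called per library. WT replicate 2 had the most tags, the most peaks and the narrowest ones, with a median width of 938 bp against 1059 to 1150 bp in the other 3 libraries.

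To show what the clusters look like to an antibody that needs methylated CpG sites, the RefSeq promoter (300 bases around the start, GRCm38.p6) of 1 gene of each cluster is given first, with every CpG site in capitals. RefSeq promoters were matched for 22 of the 38 genes, 24 promoters in all, and 0 of them overlapped a peak of any library. The share of all RefSeq promoters with a peak was not computed, so this 0 has no background beside it. Hoxc4 was the only Hoxc gene matched. The 4 shown are Hoxa13 and Hoxd13, which pattern the digits, Hoxb4, a regulator of blood stem cells, and Hoxc4, the most anterior gene of its cluster. Hoxa13 (chr6:52260831-52261130, minus strand) holds 45 CpG sites in 300 bases, the most of the 24 matched promoters. This number is reached by 1.93% of the 32851 RefSeq promoters. Hoxd13 (chr2:74667975-74668274, plus strand) holds 37, reached by 5.58%. Hoxb4 (chr11:96318017-96318316, plus strand) holds 14, reached by 36.3%, and Hoxc4 (chr15:103034145-103034444, plus strand) holds 9, reached by 45.8%. The 24 matched promoters had a median of 14.5 CpG sites, against 7 over all RefSeq promoters. Of all RefSeq promoters 34.6% reached that median of 14.5.
Hoxa13 promoter: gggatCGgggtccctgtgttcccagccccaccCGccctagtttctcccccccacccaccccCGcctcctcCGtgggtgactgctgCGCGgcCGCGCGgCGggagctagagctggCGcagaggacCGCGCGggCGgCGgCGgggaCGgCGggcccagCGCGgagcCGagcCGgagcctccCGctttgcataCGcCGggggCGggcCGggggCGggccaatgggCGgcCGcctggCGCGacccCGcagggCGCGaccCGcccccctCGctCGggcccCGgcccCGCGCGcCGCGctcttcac
Hoxd13 promoter: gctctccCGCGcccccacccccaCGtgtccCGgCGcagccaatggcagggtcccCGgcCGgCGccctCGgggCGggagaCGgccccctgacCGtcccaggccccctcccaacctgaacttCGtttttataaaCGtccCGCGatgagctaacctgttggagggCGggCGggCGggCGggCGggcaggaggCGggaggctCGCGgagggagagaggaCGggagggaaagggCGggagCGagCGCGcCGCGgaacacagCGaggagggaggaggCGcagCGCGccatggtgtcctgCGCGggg
Hoxb4 promoter: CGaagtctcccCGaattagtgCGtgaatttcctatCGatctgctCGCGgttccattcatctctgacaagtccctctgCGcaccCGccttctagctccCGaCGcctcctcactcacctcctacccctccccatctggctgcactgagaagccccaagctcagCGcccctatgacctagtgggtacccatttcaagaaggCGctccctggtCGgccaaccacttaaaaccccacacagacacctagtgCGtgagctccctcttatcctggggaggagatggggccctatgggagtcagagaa
Hoxc4 promoter: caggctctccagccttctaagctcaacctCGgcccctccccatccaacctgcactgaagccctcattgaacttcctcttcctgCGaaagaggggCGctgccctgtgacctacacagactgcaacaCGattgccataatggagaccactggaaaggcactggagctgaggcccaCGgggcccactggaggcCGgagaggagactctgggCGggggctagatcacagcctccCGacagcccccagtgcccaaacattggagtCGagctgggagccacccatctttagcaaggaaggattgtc

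Stretches of 300 bases of the merged regions that do lie inside the clusters are given next, again with CpG sites in capitals and on the plus strand of GRCm38.p6. Each is the stretch with the most CpG sites outside exons of protein-coding genes in the region with the most tags of its cluster. The stretch in the 5′ part of Hoxa7 (chr6:52219952-52220251) holds 17 CpG sites, that between Hoxb13 and Hoxb9 (chr11:96248595-96248894) also 17, and that between Hoxd3 and Hoxd1 (chr2:74755874-74756173) 8. The Hoxc cluster held no region and therefore has no stretch to show.
Hoxa7 region: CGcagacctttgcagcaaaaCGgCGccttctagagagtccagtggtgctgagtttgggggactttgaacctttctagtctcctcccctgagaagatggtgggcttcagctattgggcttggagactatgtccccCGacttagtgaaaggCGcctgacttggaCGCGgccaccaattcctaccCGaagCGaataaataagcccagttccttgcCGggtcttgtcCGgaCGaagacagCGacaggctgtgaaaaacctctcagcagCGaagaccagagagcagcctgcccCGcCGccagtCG
Hoxb13 to Hoxb9 region: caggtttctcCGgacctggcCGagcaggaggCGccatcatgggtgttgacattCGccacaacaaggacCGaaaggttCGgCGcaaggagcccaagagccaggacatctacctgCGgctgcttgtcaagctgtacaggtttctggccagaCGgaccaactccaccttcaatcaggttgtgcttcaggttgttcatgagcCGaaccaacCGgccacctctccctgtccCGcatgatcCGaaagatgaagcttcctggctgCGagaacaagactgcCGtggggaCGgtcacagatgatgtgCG
Hoxd3 to Hoxd1 region: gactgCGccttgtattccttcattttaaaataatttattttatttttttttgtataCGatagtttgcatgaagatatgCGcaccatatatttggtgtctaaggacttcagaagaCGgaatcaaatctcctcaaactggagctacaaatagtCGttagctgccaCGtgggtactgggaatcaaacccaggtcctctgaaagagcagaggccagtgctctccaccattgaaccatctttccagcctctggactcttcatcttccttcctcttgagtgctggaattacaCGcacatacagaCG

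The Hox clusters were almost empty of MeDIP peaks in all 4 libraries, of both genotypes. Peaks of the 4 libraries were merged into regions where they overlapped by at least 1 bp, which gave 186169 regions on the autosomes, X and Y. Only 5 of these regions lay between the first and the last listed gene of the clusters, which together span 484.988 kb. WT replicates 1 and 2 had 3 and 4 peaks there, and βRapKO replicates 1 and 2 had 3 each. These peaks covered 0.757% and 0.592% of the clusters in WT and 0.660% and 0.595% in βRapKO. The same libraries had peaks over 5.55%, 6.15%, 5.58% and 5.92% of the whole assembly. The values of the genotypes overlapped within the clusters, and every library had a share several times below its own share over the assembly.

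The contrast was wider when CpG sites were counted in place of bases. The clusters hold 11784 CpG sites, or 2.43 per 100 bp, against 0.826 per 100 bp over the assembly. Peaks covered 0.764% and 0.603% of these sites in the WT libraries and 0.696% in each βRapKO library. Over the assembly they covered 13.4% and 15.2% of CpG sites in WT and 13.4% and 14.1% in βRapKO. The clusters are also poorer in repeats, with 18.2% of bases masked against 36.4% of the assembly. Between 36.6% and 39.7% of all peak bases were masked, and the part of repeat content in the low coverage was not tested.

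Each of the 4 clusters showed this low coverage. The Hoxa cluster (chr6:52162417-52260880) had 1 region and 1.81% of its bases under a peak of any library. The Hoxb cluster (chr11:96194316-96368256) had 3 regions and 1.41%. The Hoxc cluster (chr15:102921103-103036852), with 2484 CpG sites in 115.75 kb, had 0 regions in the 4 libraries. The Hoxd cluster (chr2:74668310-74765142) had 1 region and 0.884%. Cut into consecutive tiles of the length of each cluster, the assembly had a median coverage of 7.55% to 7.61%. Of the tiles, 12.1% were covered as little as Hoxa or less, 5.51% as Hoxb, 2.16% as Hoxc and 5.69% as Hoxd. Low coverage alone was therefore not rare at this length. The tiles include those of X and Y, and the methods give males as the default sex. Autosomal tiles were not looked at apart. The tile shares are descriptions, without a test.

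**Figure D1:**
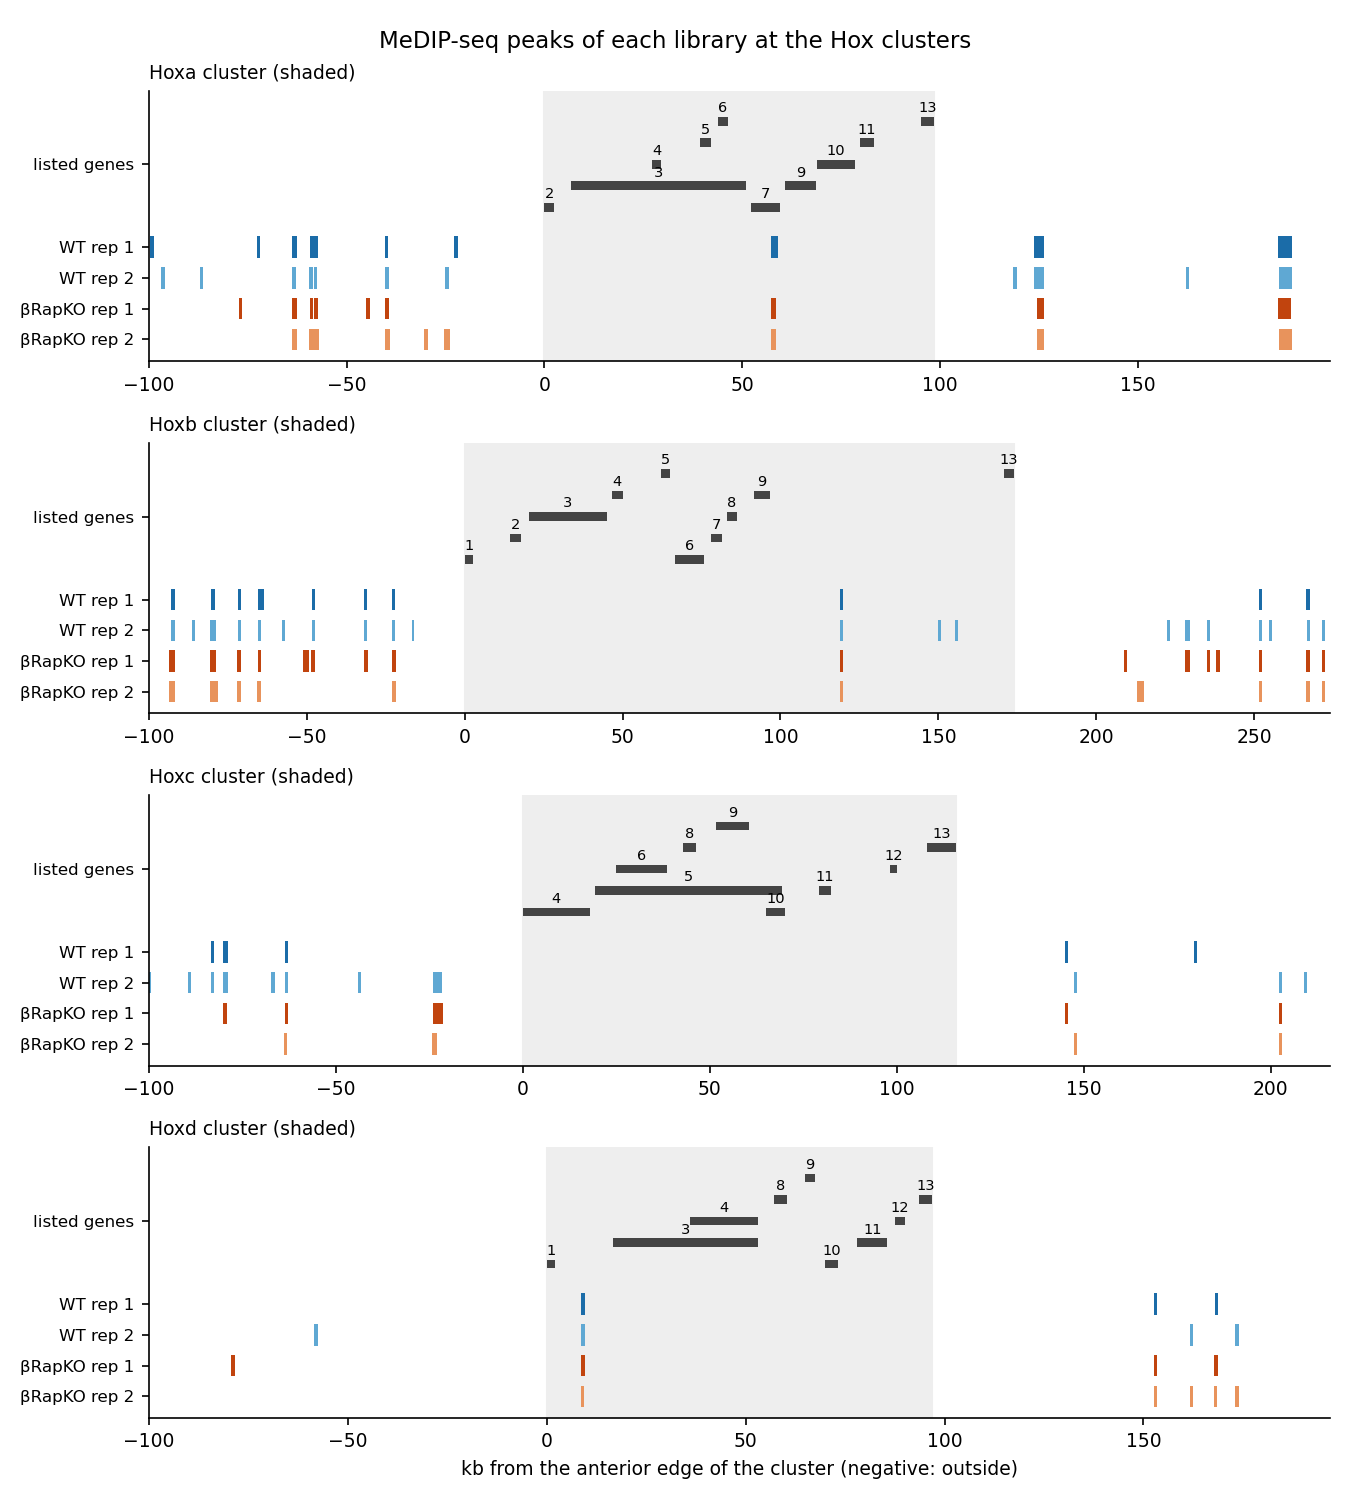
Positions of MeDIP peaks (coloured bars, 1 row per library) and listed Hox genes (grey bars with their numbers) across each cluster and 100 kb on either side; the x axis is kb from the anterior edge and the shading spans the first to the last listed gene. Peaks recur on both sides, except that WT replicate 1 and βRapKO replicate 2 have none on the anterior side of Hoxd. The shaded clusters hold 1, 3, 0 and 1 merged regions.

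Of the 38 Hox genes, 1 had a region in its body or the 2 kb upstream, namely Hoxa7, a gene of the central group that patterns the trunk. Over all protein-coding genes 77.7% had a region. Hox genes are short, with a median body plus upstream of 5.50 kb against 19.4 kb for all genes, so the share was also read within classes of length. Under 5 kb, 0 of 10 Hox genes had a region, against 39.2% of all genes of that size. Between 5 and 10 kb it was 1 of 18 against 56.9%, between 10 and 20 kb 0 of 6 against 78.9%, and over 20 kb 0 of 4 against 93.8%. The last 4 are Hoxa3, which patterns the thymus and parathyroid, Hoxb3, Hoxc5 and Hoxd3. Except for Hoxb3, their annotated bodies run over neighbouring Hox genes, so the members of a cluster share much of the same DNA.

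No Hox gene had a peak at the start of its principal transcript, the only start counted per gene. The Hoxa7 region described below lay over exon 1 of another transcript, Hoxa7-205. Within 500 bp of the start, 0 of 38 had a peak of any library, against 12.6% of all genes. The number of CpG sites in this 1 kb window ran from 13 at Hoxd4 to 126 at Hoxa13, with a median of 56.5 against 43 over all genes. Among all genes a peak near the start was most frequent, at 29.9%, where the window held 20 to 39 CpG sites, and least frequent, at 5.38%, with 60 or more. Of the Hox genes 9 fell into the former class and 18 into the latter, and 0 had a peak in either. The 9 included Hoxa9, a driver of blood progenitor growth, and Hoxb1, which gives its identity to a hindbrain segment. At 40 to 59 CpG sites the share was 10.7% of all genes and 0 of 8 Hox genes, and under 20 it was 14.1% and 0 of 3.

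The nearest region was also far away. From the start of a Hox gene to the nearest region of any library the median distance was 35.4 kb, against 3.17 kb over all protein-coding genes. A start at least as far from a region as this median was found in 693 genes, or 3.16%, including by construction 19 of the Hox genes. The shortest distances were 2.06 kb at Hoxa7, 6.03 kb at Hoxa9, 6.45 kb at Hoxa3 and 6.53 kb at Hoxd1. Hoxc9, Hoxc10 and Hoxd11 had the longest, at 81.3, 75.0 and 69.8 kb. These posterior genes act in the trunk, hindlimb and forelimb.

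The clusters differed in this distance. The median was 14.3 kb in Hoxa (2.06 to 27.8 kb), 34.9 kb in Hoxb (17.9 to 66.0 kb), 48.7 kb in Hoxc (23.9 to 81.3 kb) and 55.8 kb in Hoxd (6.53 to 69.8 kb). By position along the body axis, the 11 anterior genes (numbers 1 to 4) had a median of 27.8 kb, the 11 central genes (5 to 8) 43.0 kb and the 16 posterior genes (9 to 13) 50.4 kb. The ranges of the groups overlapped widely, at 6.45 to 66.0, 2.06 to 67.7 and 6.03 to 81.3 kb. Genes of a cluster measure their distance to the same few regions, so they are not independent values and no test was made.

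**Figure D2:**
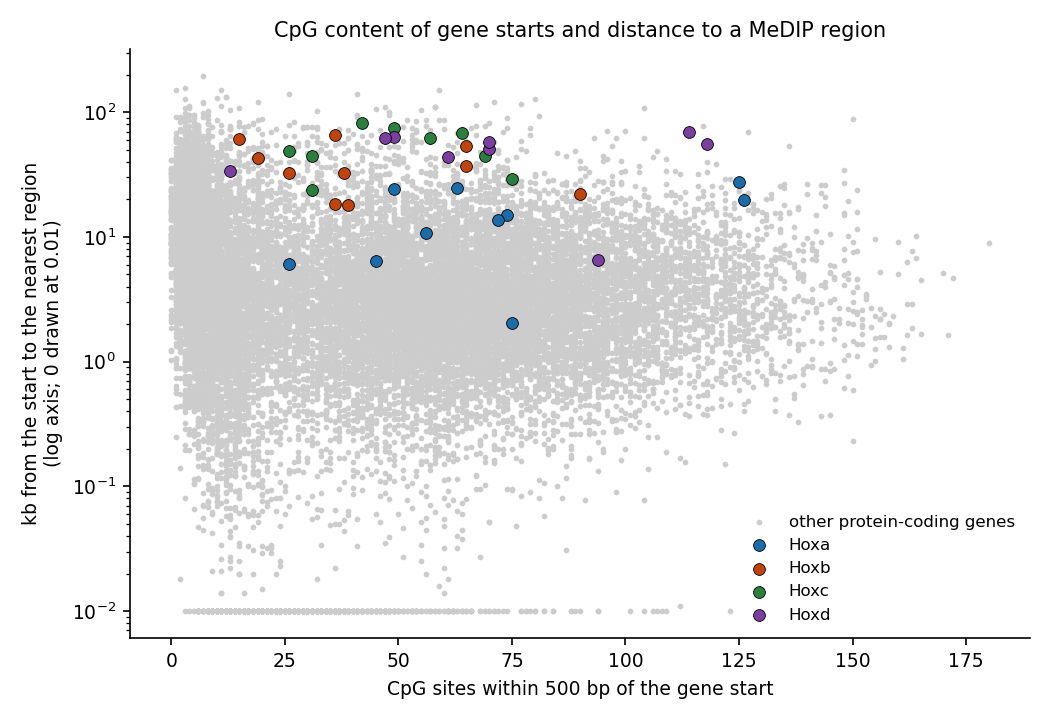
Each point is a protein-coding gene, with the CpG sites within 500 bp of its start on the x axis and the distance in kb from the start to the nearest merged region on a log y axis (0 drawn at 0.01); Hox genes are coloured by cluster. The Hox genes lie between 2.06 and 81.3 kb. Hoxa7, at 2.06 kb with 75 CpG sites, is below the median of 3.03 kb for all genes with 60 or more. The other Hox genes lie above the median of all genes in the same class of CpG sites.

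Seen from the other side, the clusters form some of the most CpG-rich stretches without a peak. Between neighbouring regions there were 185952 such stretches, with a median length of 6.58 kb. The stretch from 74612475 to 74755594 on chromosome 2 was 143 kb long, held 8 listed genes from Hoxd13 to Hoxd3, and had the highest number of CpG sites of all, 3392. The stretch from 96249491 to 96384285 on chromosome 11, with the 9 genes Hoxb1 to Hoxb9, ranked 2 with 3050 sites over 135 kb. The stretch from 102891782 to 103058306 on chromosome 15, with all 9 Hoxc genes, ranked 4 with 2934 sites over 167 kb. Ranking by CpG sites was chosen after the data had been seen. With stricter peaks (a MACS score of at least 100) the Hoxd, Hoxb and Hoxc stretches ranked 5, 7 and 6 among the autosomes, where they had ranked 1, 2 and 3.

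By length alone these 3 stretches were less extreme, at ranks 675, 855 and 396. Of the 8281 stretches over 50 kb the median had 0.473 CpG sites per 100 bp, while these had 2.37, 2.26 and 1.76. A stretch over 50 kb with at least 1.5 sites per 100 bp was found 32 times, and 6 of the 32 held Hox genes. In Hoxa the single region split the cluster into stretches of 79.1 kb (Hoxa2 to Hoxa6, 1879 CpG sites) and 59.4 kb (Hoxa9 to Hoxa13, 1667 sites). They ranked 17 and 26 over all chromosomes and 5 and 9 over the autosomes. Of the 20 stretches with the most CpG sites 13 were on the X chromosome, and of the first 10 on autosomes 5 held Hox genes. Hoxb13, which acts in the prostate and tail, stands apart from the rest of its cluster and lay in a stretch of 52.8 kb with 797 sites.

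**Figure D3:**
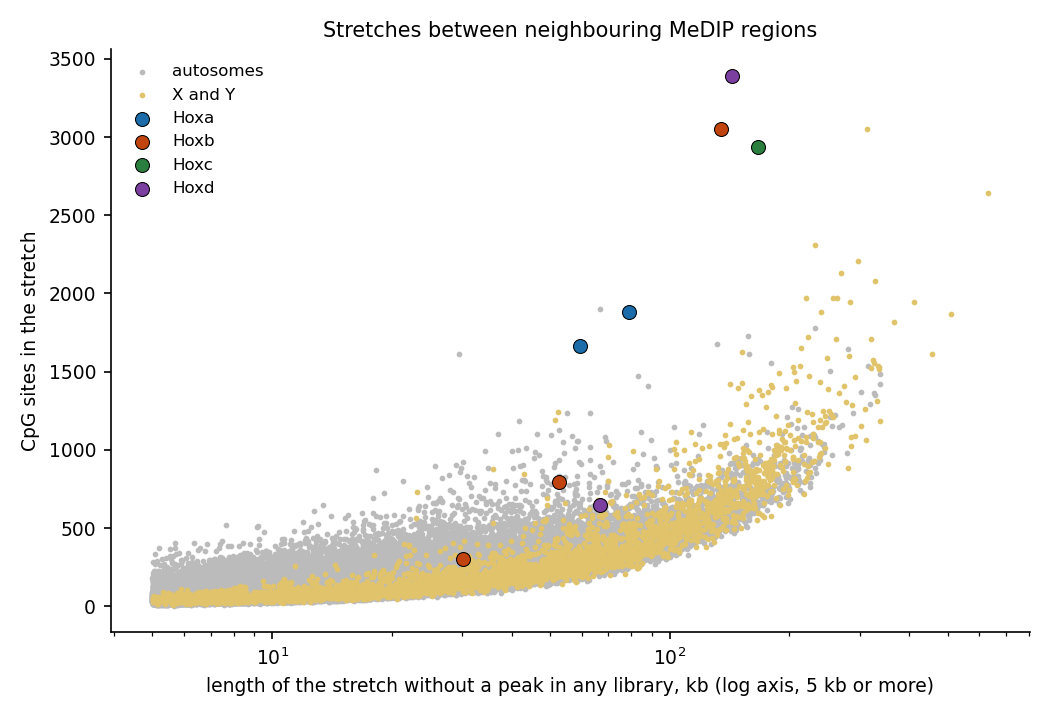
Stretches of at least 5 kb without a peak in any library, by length in kb (log x axis) and number of CpG sites (y axis), for autosomes (grey) and X and Y (yellow), with stretches in or at the edge of a Hox cluster coloured. The main Hoxd, Hoxb and Hoxc stretches hold 3392, 3050 and 2934 CpG sites, more than other stretches of their length.

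Peaks resumed outside the clusters. In the 1000 kb on either side there were 10.15 regions per 100 kb around Hoxa, 12.35 around Hoxb, 8.6 around Hoxc and 9.55 around Hoxd. Inside the clusters the corresponding densities were 1.02, 1.72, 0 and 1.03 regions per 100 kb. Peaks of any library covered 10.5% to 16.4% of the flanks. On the anterior side the nearest region began 22.0 kb from Hoxa, 16.0 kb from Hoxb, 21.5 kb from Hoxc and 57.9 kb from Hoxd. On the posterior side the distances were 19.8, 34.8, 29.3 and 55.8 kb. The low density thus ran past the outermost listed genes, and furthest at Hoxd. Of the 8 nearest regions outside, 5 had a peak in 1 library, 1 in 2 libraries and 2 in 3, and none had a peak in all 4. CpG density was lower in the flanks than in the clusters, at 0.972 to 1.38 sites per 100 bp. Low density was not particular to the clusters. In the posterior flank of Hoxa the bin from 400 to 500 kb held 2 regions, at 0.779 CpG sites per 100 bp. Peaks of any library covered 1.315% of it. The outermost anterior bin of Hoxc held 0 regions, but with 0.044 CpG sites per 100 bp it had almost nothing to pull down. Its share of assembly gap was not checked, and it is part of the Hoxc mean of 8.6.

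**Figure D4:**
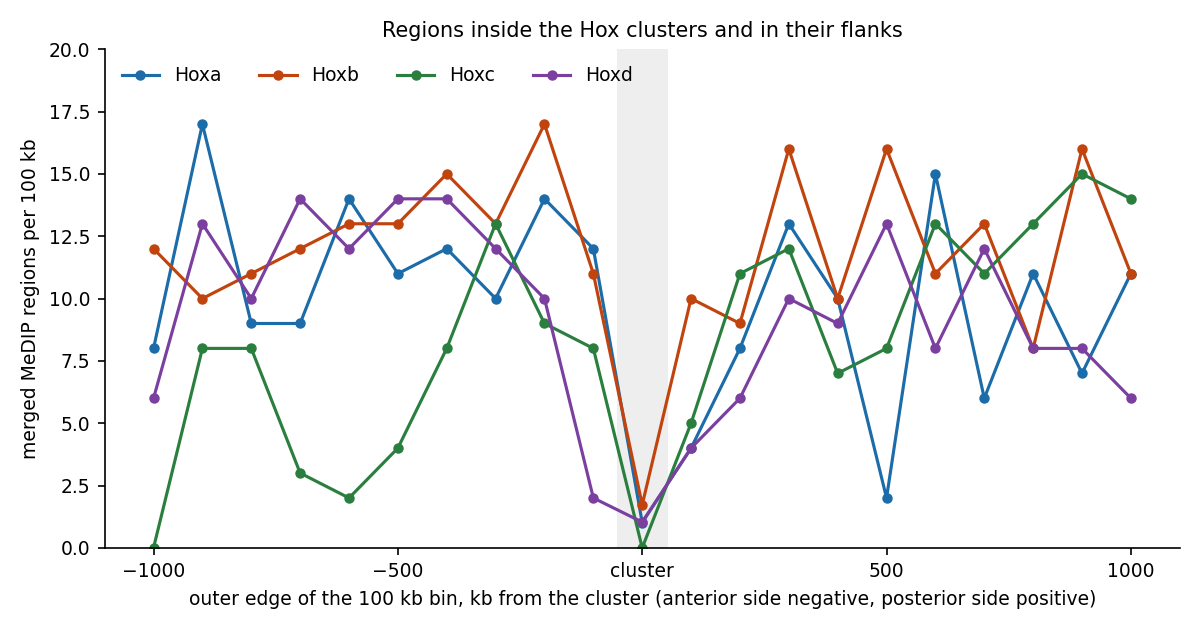
Merged regions per 100 kb (y axis) inside each cluster (shaded) and in 100 kb bins up to 1000 kb on the anterior (negative) and posterior (positive) side. All 4 lines fall to between 0 and 1.72 at the cluster, from flank means of 8.6 to 12.35.

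The only region of a Hox gene lay in the 5′ part of Hoxa7 (chr6:52219561-52221339), 2.06 kb upstream of the principal start and over exon 1 of the longer transcript Hoxa7-205. Its CpG density was 2.81 sites per 100 bp, near that of the cluster, and 11.1% of it was masked as repeat. WT replicate 1 had 60 tags there, WT replicate 2 had no peak, and βRapKO replicates 1 and 2 had 51 and 53 tags. Scaled to CPM (tags per 1000000 tags after duplicate removal) these were 2.35 in WT replicate 1 and 1.75 and 1.82 in βRapKO. MACS gave these peaks a fold enrichment of 5.85, 5.23 and 4.53 over the local background, between percentiles 6.32 and 21.04 of the peaks of the same libraries. By score they were at percentiles 29.2 to 52.5 and by tags at 46.5 to 63.3, so they were low in fold enrichment and near the middle in tags. A library without a peak has no count, so the region did not enter the test of the genotypes. Without WT replicate 2 it could be fitted, with 1 WT library assumed to vary like the others. Its log2 fold-change of βRapKO to WT was then −0.40. The library left out was the WT library without a peak, whose level is unknown and may be low. This value therefore says little about the genotypes. With stricter peaks (a MACS score of at least 100) this region was gone, and 0 of 38 Hox genes had one.

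The other 4 regions lay between listed genes and outside their 2 kb upstream, and were singled out after their values were seen. The region with the highest MACS scores lay between Hoxb13 and Hoxb9 (chr11:96248379-96249490), 22.0 kb upstream of Hoxb9, over the processed pseudogene Gm11539. It had 54 and 83 tags in WT replicates 1 and 2 and 53 and 57 tags in βRapKO replicates 1 and 2. WT islets had a mean of 2.38 CPM ± 0.381 (SD, n = 2) and βRapKO islets a mean of 1.88 CPM ± 0.0990 (SD, n = 2). Each βRapKO library was lower than each WT library, at 1.81 and 1.95 against 2.11 and 2.65 CPM. The log2 fold-change of −0.34 did not pass the test (Benjamini-Hochberg adjusted p = 0.864, edgeR), and it was −0.16 without WT replicate 2. Its MACS score was at percentiles 67.3 to 93.2 and its fold enrichment at percentiles 43.6 to 80.6 in the 4 libraries. A processed pseudogene is a copy of a spliced mRNA, so its tags may share sequence with the parent gene and other copies, and this was not tested. In tags per kb of peak per 1000000 tags, a density that takes out peak width, the values were 1.96 and 3.05 for WT and 1.69 and 1.98 for βRapKO, and these overlapped.

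Between Hoxd3 and Hoxd1 a region (chr2:74755595-74756450) lay in an intron of Haglr, a long noncoding RNA gene of the cluster. Its tags numbered 33 and 32 in WT and 34 and 39 in βRapKO, near the smallest counts of 23 to 25 tags of any peak. The mean of WT was 1.16 CPM ± 0.190 (SD, n = 2), that of βRapKO was 1.25 CPM ± 0.122 (SD, n = 2), and the genotypes overlapped. A log2 fold-change of 0.13 was fitted (adjusted p = 0.950, edgeR). It turned to −0.045 without WT replicate 2 (adjusted p = 0.990, edgeR). The region held 1.29 CpG sites per 100 bp, fewer than its cluster, and 41.5% of its bases were masked as repeat. The last 2 regions, between Hoxb13 and Hoxb9 at chr11:96212252-96212908 and chr11:96217555-96218245, had a peak in WT replicate 2 alone, with 31 and 32 tags.

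**Figure D5:**
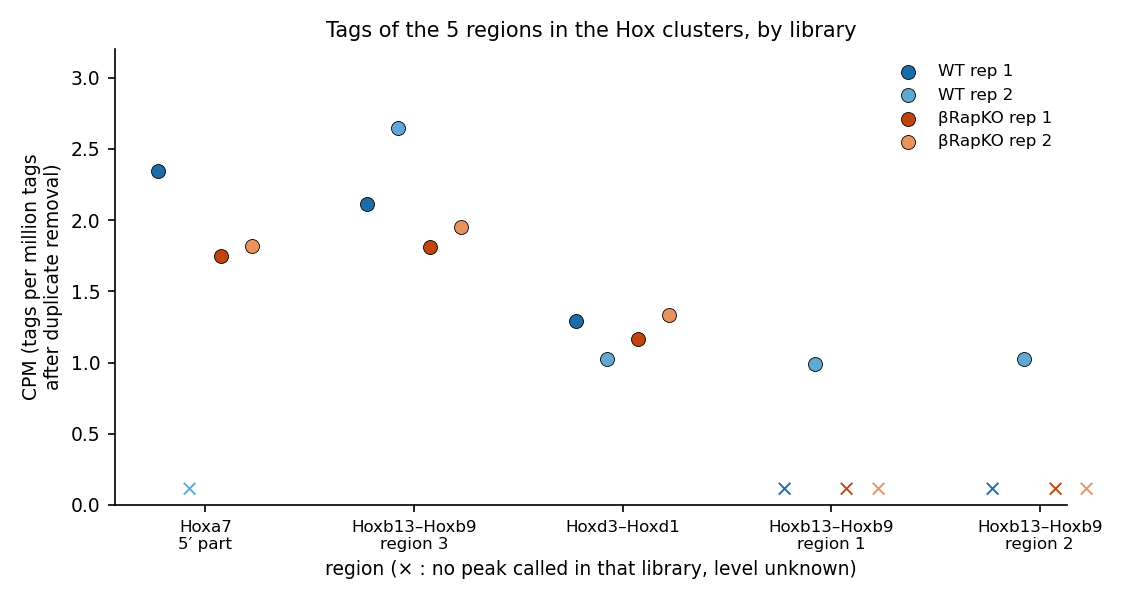
CPM (y axis) of the 5 merged regions inside the Hox clusters, 1 point per library, with a cross where a library had no peak and its level is unknown. The genotypes overlap between Hoxd3 and Hoxd1, while each βRapKO library lies below each WT library in region 3 between Hoxb13 and Hoxb9 (1.81 and 1.95 against 2.11 and 2.65 CPM).

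No difference between the genotypes was detected in the Hox clusters. Of the 5 regions 2 had a peak in all 4 libraries and could be tested, and 0 of the 2 passed an FDR of 0.05 with a fold-change above 1.5 in edgeR's quasi-likelihood test over 75052 regions. The share called over all tested regions was 0%. The unadjusted p was 0.1401 and 0.596, so 0 of the 2 had a p under 0.05, and DESeq2 and limma gave no call in either. A fold-change above 1.5 was found in 0 of the 2, against 1.77% of all tested regions lower and 1.29% higher in βRapKO. Peaks confined to the 2 WT libraries were found at 0 of the 5 regions and peaks confined to the 2 βRapKO libraries also at 0, against 4.16% and 1.58% of all regions. Hox genes with a region in WT only or βRapKO only were 0 of 38 each, against 14.7% and 6.29% of all genes. With 1 gene holding a region, these zeros say little about a change in the others. The tags of all peaks in the clusters summed to 5.75 and 5.68 CPM in WT and 4.72 and 5.11 CPM in βRapKO, and this sum depends on how much was called.

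Of 38 annotated noncoding genes between the outermost listed genes, 2 had a region, namely the pseudogene Gm11539 and Haglr. Many of these genes are very short, and the share over all noncoding genes was not computed.

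Genes that work with Hox proteins or next to them were read the same way. Over all protein-coding genes 77.7% had a region, from 39.2% of those under 5 kb to 93.8% of those over 20 kb. The lists below are small and were not tested against these shares. Evx1 and Evx2, homeobox genes at the posterior edges of Hoxa and Hoxd, had a region in 0 of 2. Of the ParaHox genes, a sister group of the Hox clusters that includes the beta cell factor Pdx1, 3 of 6 had a region, and 5 regions in all. Of these 5 regions 0 had a peak in all 4 libraries, so none could be tested. Pdx1 itself had no region, and its start was 11.4 kb from the nearest one. It was singled out after its values were seen, as was Ezh2. The TALE cofactors (Pbx, Meis and Pknox genes), which bind DNA together with Hox proteins, had a region in 8 of 9 genes and 123 regions in all. These genes are long, with a median of 141 kb. Of the 43 regions tested in them 0 passed the test. By more than 1.5-fold 1 was lower and 2 were higher, against 1.77% and 1.29% of all tested regions. The median log2 fold-change was −0.065 against −0.059 over all regions.

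Polycomb and trithorax genes encode the proteins that hold Hox clusters silent or active, among them Ezh2 and Kmt2a, and Men1, whose product menin is a tumour suppressor of endocrine cells. A region was found in 12 of 13, at a median length of 37.3 kb, against 93.8% of all genes over 20 kb. Of their 20 tested regions 0 passed the test (1 higher and 0 lower by more than 1.5-fold). Ezh2, the methyltransferase of H3K27, was the exception with 0 regions over 67.2 kb. Regions with peaks in both libraries of 1 genotype alone numbered 5 in WT and 2 in βRapKO of the 123 regions of the TALE genes, and 2 and 1 of the 53 regions of the Polycomb and trithorax genes. These numbers are near the shares of 4.16% and 1.58% over all regions. Of the other lists 0 of 2 Evx genes, 0 of 6 ParaHox genes and 0 of the 38 Hox genes held such a region.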

How the data were processed

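MeDIP-seq peaks of 2 WT and 2 βRapKO libraries were used, grouped by the genotype labels. The authors aligned reads with Bowtie2 2.2.5 and called peaks per library without a control. The file headers name MACS 1.4.2 and the submitters' notes 0.14.2, and the notes list mm10 and mm9, but 0 peaks ended past a GRCm38 chromosome. Per the headers, MACS ran at a p of 1e-05, kept 1 tag at each position and took its local background over 10000 bp. For each peak the authors deposited a raw tag count, a score (10 times −log10 of the p-value) and a fold enrichment ratio. Peaks called without a control also mark places where tags pile up for other reasons.

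Peaks overlapping by at least 1 bp were merged, and their tags were added within each library. The test of regions called in every library used edgeR 4.0.16 (R 4.3.3, quasi-likelihood, Benjamini-Hochberg adjustment over 75052 regions), with the tags after duplicate removal as library size. Genes came from GENCODE M21 and CpG sites from GRCm38.p6. Alternatives used DESeq2 1.42.0, limma 3.58.1, other library sizes, peak sets and gene windows. Tables used Python 3.11.15 and pandas 2.3.3. The 500 bp windows of the study need reads and were not used here. Members and lists were chosen with earlier results of these data known. The named regions were those with most tags in each cluster and those called in all 4 libraries or in 1 genotype. With 2 libraries against 2 an exact permutation test cannot give a p below 0.333.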

Additional observations from a re-analysis of the deposited data

How the results depend on the processing

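Stricter peaks (a score of at least 100) moved most: the Hox genes with a region fell from 1 to 0, and the mean covered share of the clusters was 0.201% in WT and 0.275% in βRapKO in place of 0.674% and 0.627%. The CpG ranks among autosomal stretches were then 7 for Hoxb, 6 for Hoxc and 5 for Hoxd, in place of 2, 3 and 1, as fewer peaks lengthen other stretches too. Leaving out a library gave a covered share of 0.592% to 0.757% in WT and 0.595% to 0.660% in βRapKO. The log2 fold-change between Hoxb13 and Hoxb9 was −0.34 and lay between −0.49 and −0.16 over 14 alternatives (adjusted p 0.441 or higher). Between Hoxd3 and Hoxd1 it was 0.13 and positive in 11 of 12 alternatives, from 0.027 to 0.36. Leaving out a library gave −0.045 (without WT replicate 2) to 0.29 (without WT replicate 1), and the cause was not tested. Scaling to the total of peak tags per library moved the median log2 fold-change of all tested regions from −0.059 to 0.10, and tags per kb of peaks moved it to −0.17. The number of Hox gene regions that passed the test was 0 with and without the replicate number as a block, a count that was fixed because none had a peak in all 4 libraries. With this block the log2 fold-changes of the 2 intergenic regions were −0.34 and 0.13. Libraries with the same number deviated together with a correlation of 0.0474 over 75052 regions, so the numbers were not taken as pairs. No median fold-change or tag sum over Hox gene regions was computed, since the Hoxa7 region lacked a peak in 1 library. A library without a peak has no count, so a low level of methylated DNA below the calling threshold could not be detected.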
